A study of Mus musculus with 6 samples.

Results

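The 4 chains described here build the receptors for interferon gamma (Ifngr1 and Ifngr2) and for the type I interferons (Ifnar1 and Ifnar2). They were taken by name from the platform annotation, and all 4 were found among 19938 named genes, each with a single probe set. All 4 also passed the filter on low values that left 11147 tested genes, although Ifngr2 read below the filter value of 6.83 on 1 IL-12 array. The chains were selected on their log2 values in all 3 group comparisons, namely the low Ifngr2 beside Ifngr1 in primed cells and the opposite moves of Ifnar2. Their values are therefore a description and carry no test.

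Gene expression was measured on 6 Affymetrix arrays of CD8+ T cells from spleens of female C57BL/6 mice that carry the Pmel-1 T cell receptor transgene, which recognises the melanoma antigen gp100. Every group carried the transgene, and the age of the mice was not given in the sources used here. The naive group held 2 arrays of fresh spleen cells that had been sorted for both CD8 and Thy1.1. The IL-2 group and the IL-12 group, of 2 arrays each, were primed with gp100 for 4 days and given IL-2 or IL-12 for 6 days, per the treatment protocol, whereas the design text gives 6 days for antigen and cytokine together. The labels name no sort after priming. The stated purpose was to find genes needed for activity against tumours by comparing the cytokines. The labels do not say whether arrays of 1 group stem from different mice or cultures, so the p-values below may measure technical spread only, and the number of arrays limits the precision.

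Interferon gamma binds a receptor of 2 kinds of chain. IFNGR1 binds the cytokine and carries the kinase JAK1, and IFNGR2 is needed for signalling and carries JAK2. Type I interferons bind IFNAR2, which carries JAK1, and IFNAR1, which carries TYK2. The activated kinases phosphorylate STAT proteins, and the 2 pathways induce overlapping sets of genes. In T cells the level of the IFNGR2 chain is known to set how strongly a cell responds to interferon gamma, and type 1 helper T cells are known to carry little of it.

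In both primed groups Ifngr2 was far lower than in naive cells while its partner Ifngr1 was slightly higher. Ifnar2, Ifnar1 and Ifngr2 lie on chromosome 16 and Ifngr1 lies on chromosome 10. The 250 bases before the annotated start are shown for the 2 chains of the interferon gamma receptor, which differed in opposite directions from naive cells, and for Ifnar2, which was higher with IL-2 and lower with IL-12. The sequences are from RefSeq, build GRCm38.p6, plus strand, 5′ to 3′, at chr16:91546809-91547058 for Ifngr2, chr10:19591699-19591948 for Ifngr1 and chr16:91372533-91372782 for Ifnar2. Capitals mark, in Ifngr2, a TTC and a GAA spaced by 4 bases, followed by a kappa B sequence that reads forward on the minus strand and, in Ifnar2, a TTCNNNGAA match.
Ifngr2: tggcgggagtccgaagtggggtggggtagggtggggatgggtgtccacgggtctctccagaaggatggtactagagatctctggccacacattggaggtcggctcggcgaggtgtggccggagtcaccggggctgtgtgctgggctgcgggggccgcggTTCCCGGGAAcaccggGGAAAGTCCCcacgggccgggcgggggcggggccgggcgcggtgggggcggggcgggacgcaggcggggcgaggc
Ifngr1: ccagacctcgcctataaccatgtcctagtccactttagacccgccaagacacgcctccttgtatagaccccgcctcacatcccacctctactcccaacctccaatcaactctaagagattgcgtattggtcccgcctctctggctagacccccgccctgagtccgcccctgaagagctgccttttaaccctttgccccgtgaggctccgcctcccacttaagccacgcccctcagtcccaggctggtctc
Ifnar2: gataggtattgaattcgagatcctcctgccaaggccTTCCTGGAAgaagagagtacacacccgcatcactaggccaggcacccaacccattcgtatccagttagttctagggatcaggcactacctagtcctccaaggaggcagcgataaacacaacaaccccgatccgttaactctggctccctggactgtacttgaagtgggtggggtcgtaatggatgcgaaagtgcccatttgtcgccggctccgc
Motifs were searched on both strands in windows of 300 bases, from 250 before to 50 after the start. The core of the interferon gamma activated site, TTCNNNGAA, occurred once in the window of Ifnar2, once in that of Ifnar1 (TTCACGGAA, across the start) and in neither interferon gamma receptor window, and 8.3% of 32851 windows held it. The core of the interferon-stimulated response element, GAAA repeated after any 2 bases, occurred in none of the 4 windows and in 3.44% of all. After the sequences were seen, 4 more motifs were searched, so their shares of all windows do not measure how unusual their matches are. The wider spaced TTC and GAA with any 4 bases between them, a spacing that STAT6 prefers, was found once in Ifngr2, from -91 to -82, and in 6.95% of all windows. The kappa B sequence was found once in Ifngr2, as the second run of capitals, from -75 to -66, and in 0.155% of all windows, with no overlap between both matches. The GC box GGGGCGGGG was found 2 times in Ifngr2 and 3 times in Ifnar1, and in 11.4% of all windows. The Ets core CCGGAAG was found 2 times in Ifnar1 and in 8.86% of all windows. The windows also differed in composition, with 31 CpG dinucleotides in Ifngr2, 26 in Ifnar1, 18 in Ifnar2 and 14 in Ifngr1, against a median of 7. These matches are letters in a window and show nothing about binding.

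Ifngr2 (probe set 10436865), the signalling chain of the interferon gamma receptor, read 10.76 and 11.02 on the naive arrays, 7.48 and 7.57 on the IL-2 arrays and 6.44 and 6.87 on the IL-12 arrays, in log2 RMA values. The groups did not overlap, and the highest primed array lay 3.19 below the lowest naive array. The mean was 10.3-fold lower in IL-2 than in naive cells, a log2 difference of -3.37 ± 0.15 (SE of the limma fit, n = 2 arrays per group). In IL-12 cells it was 18.9-fold lower than in naive cells, a log2 difference of -4.24 ± 0.15 (n = 2 per group). A more negative difference was found for 13 of the 11147 tested genes between IL-2 and naive cells, and for 7 between IL-12 and naive cells. Such ranks describe a chain that was chosen for this low value and are no test. The IL-12 arrays lay around the filter value, which is the median of all values, and no detection call was used, so these folds are fitted values and not bounds against background. Both primed groups share the naive arrays, so these differences are not independent of each other. IL-12 cells were 1.83-fold lower again than IL-2 cells, a log2 difference of -0.87 ± 0.15. The IL-12 arrays stood 0.42 apart, and the difference from IL-2 cells was -0.66 without IL-12 replicate 1 and -1.08 without IL-12 replicate 2.

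**Figure D1:**
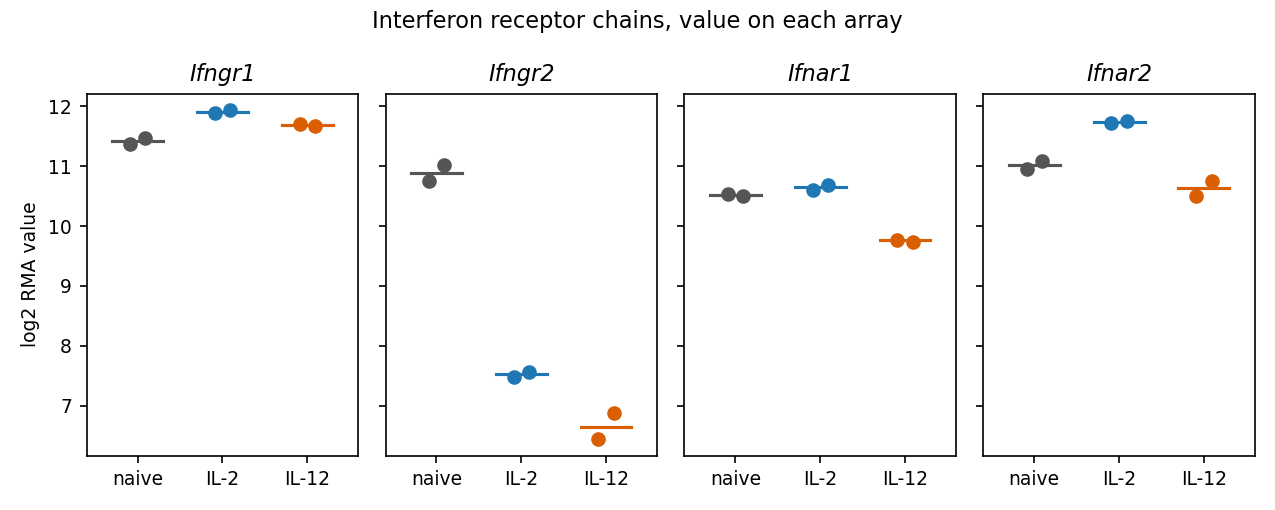
Log2 RMA value (vertical axis) of each interferon receptor chain on each array, by group; points are single arrays and lines are group means. Ifngr2 lies near 11 on the naive arrays and between 6.44 and 7.57 on the primed arrays, whereas the other chains stay between 9.74 and 11.94 on all 6 arrays.

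Ifngr1 (probe set 10361897), the ligand-binding chain, read 11.37 and 11.47 on the naive arrays, 11.89 and 11.94 on the IL-2 arrays and 11.70 and 11.68 on the IL-12 arrays. The order was naive, IL-12, IL-2 from low to high, without overlap, and the steps of 0.21 and 0.19 between neighbouring groups were larger than the 0.10 between the naive arrays, the widest pair. Its log2 difference from naive cells was 0.49 ± 0.10 in IL-2 cells and 0.27 ± 0.10 in IL-12 cells (n = 2 arrays per group). The difference between IL-12 and IL-2 cells was -0.22 ± 0.10. Against naive cells the IL-12 value depended on the scaling of the arrays, at 0.13 after quantile normalization and 0.39 with arrays centred on their medians, and kept its sign.

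Within an array, a shift common to all genes cancels from the difference between genes, but scaling that depends on a gene's level does not. Because the chains of 1 receptor differed from naive cells in opposite directions, the Ifngr2 value minus the Ifngr1 value was taken within each array. It was -0.61 and -0.45 on the naive arrays, -4.40 and -4.37 on the IL-2 arrays and -5.26 and -4.81 on the IL-12 arrays. The mean therefore differed by -3.86 between IL-2 and naive cells, by -4.51 between IL-12 and naive cells and by -0.65 between IL-12 and IL-2 cells. The primed groups did not overlap each other in this measure either. Taken singly, 69.5% of tested genes did not overlap between these groups, and no share was computed for differences between genes. The offset itself compares different probe sets and has no meaning as a ratio of transcripts. Against Ifnar1 in place of Ifngr1, Ifngr2 read -3.13 and -3.11 on the IL-2 arrays and -3.33 and -2.88 on the IL-12 arrays. The means of -3.12 in IL-2 and -3.10 in IL-12 cells were alike. The IL-12 arrays stood too far apart to read equal falls of both chains from them.

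Ifnar2 (probe set 10436830), the high-affinity chain of the type I interferon receptor, read 10.95 and 11.08 on the naive arrays, 11.72 and 11.76 on the IL-2 arrays and 10.51 and 10.76 on the IL-12 arrays. Naive cells lay between the primed groups. IL-2 cells were 1.65-fold above naive cells (log2 difference 0.72 ± 0.12, n = 2 arrays per group), and IL-12 cells were 1.30-fold below them (-0.38 ± 0.12). The step from naive to IL-12 cells was small: the closest arrays stood 0.19 apart, less than the 0.24 between the IL-12 arrays. It ranged from -0.26 without IL-12 replicate 1 to -0.50 without IL-12 replicate 2, and was -0.26 with arrays centred on their medians. Between the primed groups the distance was wide, with IL-12 2.15-fold below IL-2 (-1.10 ± 0.12), and 145 tested genes had a more negative difference.

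Ifnar1 (probe set 10436849), the other type I chain, read 10.53 and 10.51 on the naive arrays, 10.61 and 10.69 on the IL-2 arrays and 9.77 and 9.74 on the IL-12 arrays. The IL-12 arrays stood apart from all others. They lay 1.85-fold below IL-2 cells (log2 difference -0.89 ± 0.10, n = 2 arrays per group) and 1.70-fold below naive cells (-0.76 ± 0.10). Naive and IL-2 cells did not differ beyond their spread: the closest arrays stood 0.08 apart, as far as the IL-2 arrays from each other, and the difference of 0.13 ± 0.10 was 0.06 after quantile normalization and 0.23 with centring on the medians. Within arrays, Ifnar2 minus Ifnar1 was 0.42 and 0.57 in naive, 1.11 and 1.07 in IL-2 and 0.75 and 1.02 in IL-12 cells. The lower type I receptor in IL-12 than in IL-2 cells was thus seen in both chains, while the higher value in IL-2 than in naive cells was that of Ifnar2.

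Counted over the 4 chains, the arrays of the groups never overlapped, but this was common among all genes. Between IL-12 and IL-2 cells all 4 chains had both IL-12 arrays below both IL-2 arrays, as had 33.4% of tested genes (36.1% had them above and 69.5% either), and the median difference was -0.88 against 0.02 over all tested genes. Between IL-2 and naive cells 3 chains were above (38.7% of tested genes) and 1 was below (35.2%; 73.9% of tested genes either), with a median of 0.31 against 0.01. Between IL-12 and naive cells 1 chain was above (42.5% of tested genes) and 3 were below (36.7%; 79.2% of tested genes either), with a median of -0.57 against 0.04. These contrasts chose the chains, so nothing is read from the counts. By the limma test, 45.7% of all tested genes passed between IL-2 and naive, 57.9% between IL-12 and naive and 20.8% between IL-12 and IL-2 cells.

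**Figure D2:**
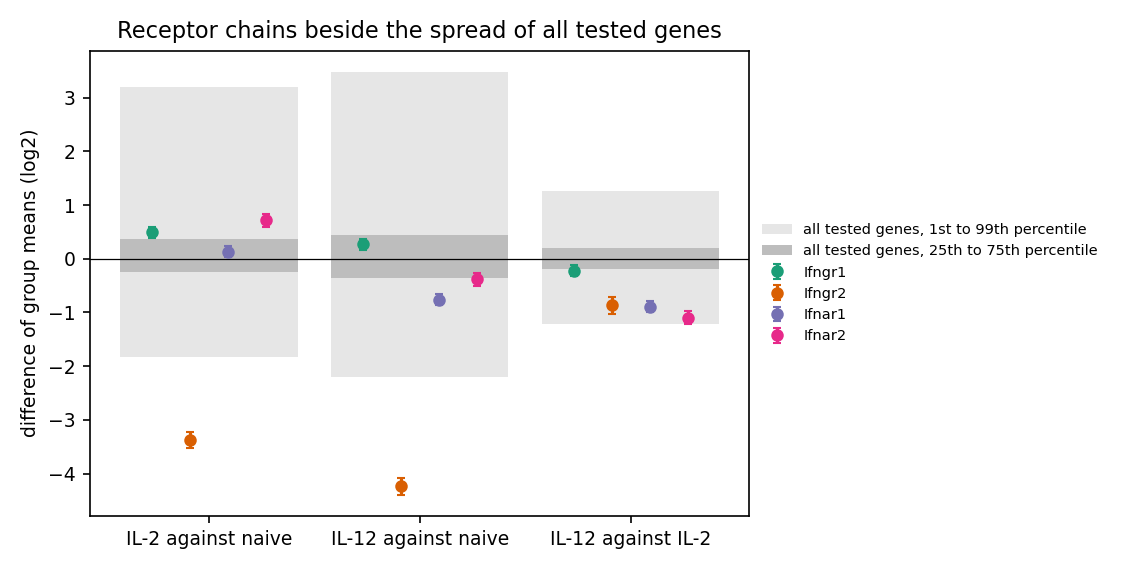
Difference of group means on the log2 scale (vertical axis) for the 4 chains in each comparison; points are the limma estimates, bars their standard errors (n = 2 arrays per group), and grey bands the spread over 11147 tested genes, the light band without the lowest and the highest percentile and the dark band between the quartiles. Ifngr2 lies below the 1st percentile against naive cells (-1.83 for IL-2, -2.21 for IL-12), and Ifngr2, Ifnar1 and Ifnar2 lie between -0.87 and -1.10 in IL-12 against IL-2.

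In the order of genes on chromosome 16, Ifnar2 is followed by Il10rb, Ifnar1 and Ifngr2, with no other protein-coding gene between them in the RefSeq annotation. Il10rb encodes a chain shared by the receptors for IL-10, IL-22 and the type III interferons. It read 10.84 and 10.87 in naive, 10.56 and 10.61 in IL-2 and 9.70 and 9.68 in IL-12 cells. IL-12 cells were thus below both other groups, as for Ifnar1. It fell by 0.89 from IL-2 to IL-12 cells (± 0.10; limma adjusted p = 0.000466) and by 1.17 from naive to IL-12 cells (limma adjusted p = 1.55e-05). The difference of -0.27 ± 0.10 between IL-2 and naive cells lay at the threshold (limma adjusted p = 0.048) and was lost on leaving out any 1 of the 6 arrays (0.0504 to 0.225). Of the 3 genes on either side of the cluster, 4932438H23Rik, Olig2, Olig1 and Dnajc28 were below the filter on low values. Tmem50b, next to Ifngr2, had log2 differences of 0.34 ± 0.27, 0.10 ± 0.27 and -0.24 ± 0.27 for IL-2 against naive, IL-12 against naive and IL-12 against IL-2 (limma adjusted p = 0.334, 0.769 and 0.577). Gart, a purine synthesis gene, rose by 0.63 ± 0.11 in IL-12 against IL-2 cells (limma adjusted p = 0.00549). That call did not hold on leaving out IL-2 replicate 2 (0.0629) or IL-12 replicate 2 (0.0552). Among the tested genes of this stretch, Ifngr2 had the largest differences between primed and naive cells. On chromosome 10, Olig3, Il22ra2, Il20ra and Slc35d3 near Ifngr1 were below the filter. Perp, a gene of cell adhesion and apoptosis on the same side as Olig3, rose by 1.79 ± 0.10 from naive to IL-2 and by 2.21 ± 0.10 from naive to IL-12 cells (limma adjusted p = 1.82e-06 and 3.55e-07), differences larger than those of Ifngr1. Tnfaip3, an NF-kappa B inhibitor gene between Perp and Olig3, rose by 1.08 ± 0.34 with IL-2 (limma adjusted p = 0.0309), a call that did not hold on leaving out either naive array (0.0548 and 0.138) or the first IL-2 array (0.207). Of the other class II cytokine receptor chains, the family to which all 4 chains belong, 4 of 8 were tested. Beside Il10rb, only Il20rb passed the test, 0.42 higher in IL-12 than in naive cells (limma adjusted p = 0.00547), and Il10ra and Il22ra1 passed it in no comparison.

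**Figure D3:**
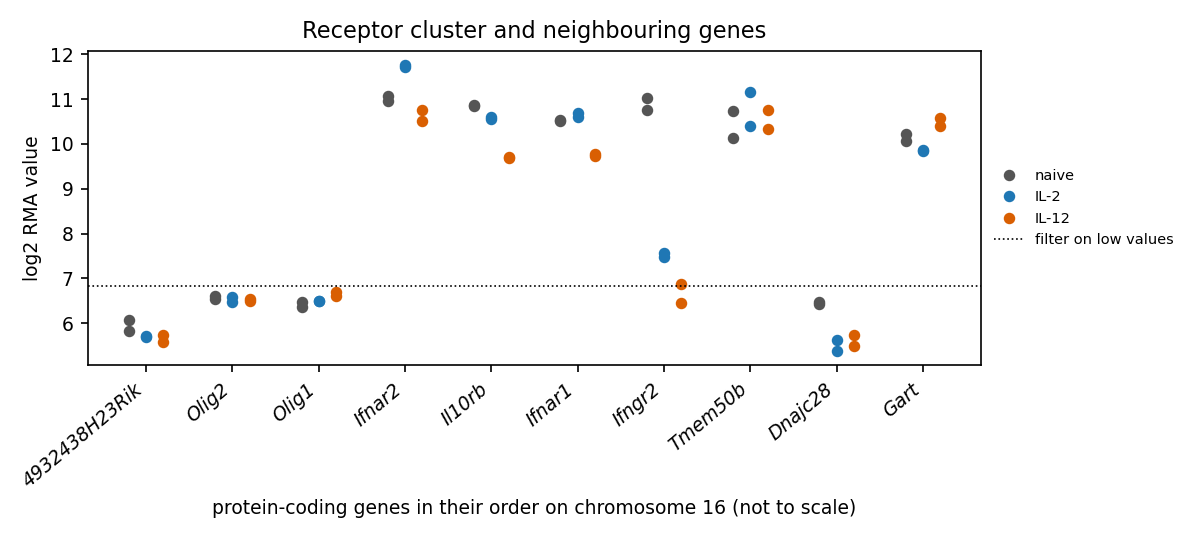
Log2 RMA value (vertical axis) on each array of the receptor cluster and the 3 protein-coding genes on either side, in their order on chromosome 16 and not to scale; points are single arrays coloured by group and the dotted line is the filter value of 6.83. Ifngr2 is the gene whose primed arrays lie far below its naive arrays, and Ifnar2, Il10rb and Ifnar1 have their lowest values in IL-12 cells.

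The likeness of other genes to each chain was measured as the root-mean-square difference of the 6 values, each centred on the gene's mean, over all tested genes with established names. For Ifngr2 the closest were Atp1b1 (0.25), a sodium pump subunit, Ifit1 (0.27), an interferon-induced antiviral gene, and Slfn5 (0.29), a Schlafen family gene, against an amplitude of 1.83 for Ifngr2 itself. Atp1b1 had group means of 11.00, 7.65 and 7.26 in naive, IL-2 and IL-12 cells. For Ifnar2 the closest were Psen2 (0.08), Cd160 (0.09), which encodes an inhibitory receptor, and Epsti1 (0.11), against an amplitude of 0.46. Ifnar1 was closest to Cd27 (0.05), a costimulatory receptor gene, Usp3 (0.06) and Npc1 (0.08), against an amplitude of 0.39. For Ifngr1 they were Il3ra, Ugdh and Kdelr1 (0.03 each), against an amplitude of 0.20. These are descriptions over 6 arrays of 3 groups.

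Among the ligands, Ifng was the one with large differences and was highest where Ifngr2 was lowest. It read 6.96 and 6.76 in naive, 10.25 and 9.43 in IL-2 and 12.35 and 12.08 in IL-12 cells. It rose by 2.98 ± 0.23 from naive to IL-2 cells (limma adjusted p = 1.6e-05) and by 5.36 ± 0.23 from naive to IL-12 cells (limma adjusted p = 2.93e-07), in both arrays of each group. Of 9 matched ligand genes, 5 were below the filter, Ifnb1 among them at 5.32 to 5.66. Ifna2 did not pass the test in any comparison. Ifna5 and Ifnz, with group means from 7.59 to 8.51, differed by at most 0.92. Ifnz fell by 0.92 from naive to IL-12 cells (limma adjusted p = 0.000694). Their other calls were each lost on leaving out IL-2 replicate 2.

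The kinases that dock on the chains were lower in IL-12 than in naive cells. Jak1, the kinase of IFNGR1 and IFNAR2, read 12.81 and 12.80 in naive, 12.04 and 12.06 in IL-2 and 11.78 and 11.79 in IL-12 cells. It fell by 0.75 from naive to IL-2 cells (limma adjusted p = 0.000329) and by 1.02 to IL-12 cells (3.28e-05). Jak2, the kinase of IFNGR2, had a difference of 0.01 ± 0.10 between IL-2 and naive cells (limma adjusted p = 0.945), a comparison in which its chain was 10.3-fold lower. In IL-12 cells Jak2 fell by 0.42 against naive cells (limma adjusted p = 0.00577), and its fall of 0.43 against IL-2 cells (0.0165) was lost without any 1 of the 4 arrays compared (0.0754 to 0.125). Tyk2, the kinase of IFNAR1, fell by 0.39 from naive to IL-12 cells (limma adjusted p = 0.0196), but not on leaving out naive replicate 1 (0.0718) or IL-12 replicate 2 (0.14). Irf9, the DNA-binding part of the type I complex, fell by 1.11 ± 0.13 from naive to IL-12 cells (limma adjusted p = 0.000101), and its partner Stat2 fell by 0.67 ± 0.13 (0.00202). In all, 5 of 6 kinases and transducers tested were lower in IL-12 than in naive cells and none was higher (by limma, also at an unadjusted p below 0.05), beside 26.7% and 31.2% of all tested genes. Against naive cells 4 of 6 were lower with IL-2 (19.9% of all tested genes), and this was 2 without naive replicate 1 or IL-2 replicate 2, 1 without IL-2 replicate 1, and 2 with centring on the medians. Between IL-12 and IL-2 cells 2 of 6 were lower (11.0% of all tested genes), 1 without IL-2 replicate 1 and 0 on leaving out the other IL-2 array or either IL-12 array.

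Of the genes that restrain the receptors, Usp18, whose product binds IFNAR2 and blocks type I signalling, read 10.53 and 10.90 in naive, 6.36 and 6.29 in IL-2 and 10.84 and 10.03 in IL-12 cells. It was thus low in IL-2 cells, where Ifnar2 was highest (limma adjusted p = 2.19e-05 against IL-12 and 1.43e-06 against naive cells). In IL-12 cells, where Ifnar2 was lowest, Usp18 did not pass the test against naive cells (-0.28 ± 0.24; limma adjusted p = 0.338). A link between both genes was not tested. Cish, a STAT5 target of the SOCS family, rose by 1.24 ± 0.10 from naive to IL-2 cells (limma adjusted p = 2.51e-05) and fell by 1.03 from IL-2 to IL-12 cells (0.000296). Socs3 fell by 1.09 from naive to IL-2 cells (limma adjusted p = 0.000255), and Socs1 passed the test in no comparison. Ptpn2, a phosphatase that acts on JAK1, rose by 0.79 ± 0.10 from naive to IL-12 cells (limma adjusted p = 0.000245). Pias3, of the family of STAT inhibitors, rose by 0.80 ± 0.10 from naive to IL-2 cells (limma adjusted p = 0.000363). Pias1, Ptpn6, a phosphatase gene, and Pias2 fell by 0.57, 0.52 and 0.48 from naive to IL-12 cells (limma adjusted p = 0.00111, 0.00255 and 0.00316). Over the 12 regulators the counts were 3 higher and 2 lower between IL-12 and IL-2 (9.82% and 11.0% of all tested genes), 2 higher and 4 lower between IL-2 and naive (25.8% and 19.9%), and 1 higher and 4 lower between IL-12 and naive cells (31.2% and 26.7%). Without IL-2 replicate 1 or 2 the first pair was 1 and 1, without IL-12 replicate 2 its higher count was 1, and without IL-12 replicate 1 its lower count was 1. Of the second pair, the lower count was 2 without IL-2 replicate 1 or 2 and with centring on the medians. Of the third pair, the higher count was 2 after quantile normalization or centring on the medians and 0 with the mean of a gene's probe sets. Prkd2, a kinase that promotes removal of IFNAR1 from the surface, fell by 0.94 from IL-2 to IL-12 cells (limma adjusted p = 0.000941). Btrc, which encodes the ubiquitin ligase subunit that binds IFNAR1, did not pass the test between them (-0.16 ± 0.11; limma adjusted p = 0.336). Prkd2 was the only one of 10 tested scaffold, ubiquitination and sorting genes that passed between IL-12 and IL-2 cells (11.0% of all tested genes were lower and 9.82% higher; with 2 higher on leaving out naive replicate 1 or 2). Against naive cells 2 of the 10, the retromer genes Vps29 and Vps35, were higher with IL-2 (25.8% of all tested genes), which was 5 without naive replicate 2, 1 without naive replicate 1 or either IL-2 array and 4 with centring on the medians. With IL-12, 6 were higher and 2 lower than in naive cells (31.2% and 26.7% of all tested genes), which was 3 and 1 without naive replicate 1 or IL-12 replicate 1. The lower count was also 1 without IL-2 replicate 1 or 2 or IL-12 replicate 2. Vps29 rose by 1.05 ± 0.14, Vps35 by 0.71 ± 0.14 and Cltc, the clathrin heavy chain gene, by 0.48 ± 0.11 from naive to IL-12 cells (limma adjusted p = 0.000275, 0.00196 and 0.004).

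Most genes that respond to type I interferon were lower in both primed groups than in naive cells. From IL-2 to IL-12 cells, 10 of the 24 tested fell and 1, Mx1, rose (11.0% and 9.82% of all tested genes), with a median of -0.24, and 13 did not pass. The call of Mx1 was lost without any 1 of the 4 arrays compared (0.0608 to 0.231). Rtp4, a chaperone of receptor transport, fell by 1.96, Xaf1, an apoptosis regulator, by 1.48, Irf7, the factor that amplifies type I interferon, by 1.30, and Herc6, an ISG15 ligase, by 1.08 (limma adjusted p from 2.82e-05 to 0.000354). Against naive cells 18 of the 24 fell with IL-2 (19.9% of all tested genes; median -0.79), and 21 fell with IL-12 (26.7% of all tested genes; median -1.35). The means of Ifnar1 and Ifnar2 were not lower with IL-2 than in naive cells, and any link of receptor RNA to these falls was not tested. Ifit3, an antiviral gene, fell by 3.41 with IL-2 and fell by 3.64 with IL-12 (limma adjusted p = 1.27e-07 and 6.4e-08). Oas2, an oligoadenylate synthetase gene, fell by 2.98 with IL-2 (limma adjusted p = 7.14e-07). Rtp4 fell by 2.11 with IL-2 and fell by 4.07 with IL-12 (limma adjusted p = 2.49e-06 and 4.08e-08), and Xaf1 fell by 2.25 with IL-12 (3.48e-07). None rose against naive cells by limma, also at an unadjusted p below 0.05, except 1 with IL-2 without naive replicate 2 or with the replicate number as a block. Ifit1, which is close to Ifngr2 in its profile, fell by 3.14 with IL-2 and fell by 3.81 with IL-12 (limma adjusted p = 2.05e-06 and 4.41e-07).

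**Figure D4:**
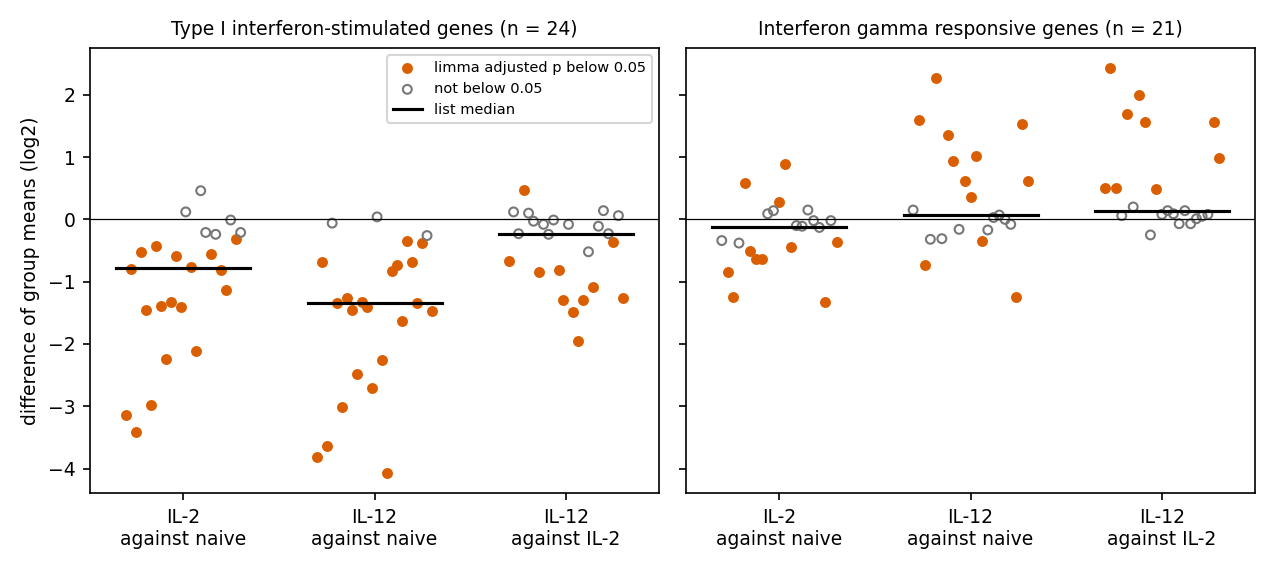
Difference of group means on the log2 scale (vertical axis) for each tested gene of the type I interferon list (left, 24 genes) and the interferon gamma list (right, 21 genes) in each comparison; filled points have a limma adjusted p below 0.05, open points do not, and lines are list medians. The type I list has medians of -0.79, -1.35 and -0.24, and the interferon gamma list has 9 genes above 0 that passed the test and none below 0 in IL-12 against IL-2 cells.

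Among the genes that respond to interferon gamma and passed the test, more fell than rose with IL-2 against naive cells. More rose than fell in both comparisons of IL-12, as did all tested genes between IL-12 and naive cells. From IL-2 to IL-12 cells, 9 of the 21 tested rose and 0 fell by limma (9.82% and 11.0% of all tested genes; 9 and 1 at an unadjusted p below 0.05), with a median of 0.14. The count of rises ranged from 6 to 9 over the alternatives that kept both arrays of the groups compared. Irf8, an interferon regulatory factor, rose by 2.43 ± 0.12, and the guanylate-binding protein genes Gbp5, Gbp3 and Gbp7 rose by 1.99 ± 0.12, 1.69 ± 0.10 and 1.57 ± 0.12 (limma adjusted p from 8.79e-06 to 8.37e-05). Gbp3, Irf8 and Gbp5 were also above naive cells in the IL-12 group, by 2.27 ± 0.10, 1.59 ± 0.12 and 1.35 ± 0.12 (limma adjusted p = 3.92e-07, 6.65e-06 and 2.06e-05), whereas Cxcl9, a chemokine gene, fell by 1.25 (4.1e-05). In all, 9 genes rose and 3 fell between naive and IL-12 cells (31.2% and 26.7% of all tested genes), with 5 falls after quantile normalization or with the most variable probe set and 1 with the filter at the 75th percentile. The list medians were 0.07 for IL-12 and -0.13 for IL-2 against naive cells, beside 0.04 and 0.01 over all tested genes. Between naive and IL-2 cells 3 rose and 8 fell (25.8% and 19.9% of all tested genes), with 5 falls without IL-2 replicate 2 or with centring on the medians. There Cxcl9 fell by 1.33, Ciita, the class II transactivator gene, fell by 1.24 and Irf8 fell by 0.84 (limma adjusted p = 4.61e-05, 0.000119 and 0.00048), and Psmb9, an immunoproteasome subunit gene, rose by 0.89 ± 0.13 (0.000803).

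Receptor chains are also made by other cells, and in such bulk samples fewer cells of a type and less RNA per cell cannot be told apart. Of 9 matched CD8 T cell markers, Cd8a, Cd8b1, Cd3e and Cd3g read 12.12 to 13.31 on all arrays, and Cd247, the lowest, 10.09 to 10.49. By limma 6 of the 9 were lower and 0 higher in IL-12 than in naive cells (26.7% and 31.2% of all tested genes). Cd8a and Cd8b1 were among them, with log2 differences of -0.49 and -0.63 (limma adjusted p = 0.00292 and 0.000606). Over the alternatives that kept both arrays of the groups compared, this lower count ranged from 3 to 7. The calls of Cd2, Cd3e and Thy1 did not hold on leaving out either IL-12 array, which left 1 array in that group. Cd4 was below the filter on low values. Of all tested genes, 19.9% were lower with IL-2 and 26.7% lower with IL-12 than in naive cells, and 9.82% were higher and 11.0% lower with IL-12 than with IL-2. All 11 matched B cell markers were lower in both primed groups than in naive cells. Their summed level (log2 of the sum of unlogged values) was 12.69 to 12.70 in naive, 10.43 to 10.45 in IL-2 and 11.43 to 11.44 in IL-12 cells. MHC class II genes were lower in primed cells for 4 of 5, with summed levels of 13.15 to 13.18, 10.94 to 10.99 and 11.95 to 12.14. Of 7 tested myeloid and dendritic markers 6 were lower with IL-2 and 5 lower and 1 higher with IL-12 than in naive cells, with summed levels over 10 genes of 11.49 to 11.67, 9.78 to 9.97 and 10.10 to 10.14. The natural killer list had 2 tested genes, Tyrobp and Fcer1g, both lower in primed cells, with naive means of 9.02 and 9.33. Ncr1, Klrb1c and Klra8 were below the filter, with naive means of 5.92, 5.34 and 5.71. Summed levels over the 5 genes were 10.20 to 10.54, 8.40 to 8.60 and 8.56 to 8.67, so they mostly follow Tyrobp and Fcer1g. Between IL-12 and IL-2 cells, 8 B cell markers and 4 MHC class II genes were higher with IL-12 by limma. None of these lists' genes was lower by limma, also at an unadjusted p below 0.05. Of 9 CD8 markers 5 were lower with IL-12 than with IL-2, Cd5 by the largest difference (-0.66), and 1 on leaving out any 1 of the 4 arrays compared. Their summed level was 15.58 to 15.72 in naive, 15.62 to 15.65 in IL-2 and 15.27 to 15.29 in IL-12 cells. Of 3 tested genes of the CD4 T cell list, Ctla4 and Zbtb7b were higher in both primed groups than in naive cells. Cd4 itself had group means of 6.59, 6.25 and 6.43 in naive, IL-2 and IL-12 cells, and Cd40lg was also below the filter. Neither of the 2 tested erythroid and platelet markers passed limma in any comparison (1 was lower in IL-12 than in naive cells at an unadjusted p below 0.05). The part of other cells in the differences of the receptor chains and of the response genes, between any of the groups, was not tested.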

How the data were processed

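Affymetrix arrays of 6 samples in 3 groups of 2 were analysed, grouped by their titles. Log2 values of 35556 probe sets came from the table the authors deposited. Per the submitters' processing notes RMA was used, a method that makes the arrays' distributions alike, so a shift of most genes in 1 direction cannot be seen. Its version, and any build, are not given in the sources used here. Platform annotation gave 21789 probe sets 1 symbol, 1621 several and 12146 none, and symbols were updated by gene identifier through the gene table of GRCm38.p6 (21698 found). A gene was its probe set with the highest mean, tested where at least 2 of 6 arrays exceeded the 50th percentile of all values (6.83). All arrays were fitted with limma 3.58.1 in R 4.3.3 (lmFit, eBayes, 1 mean per group, no block; two-sided; Benjamini-Hochberg over 11147 genes, threshold 0.05), and the fit was tested on simulated data.

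The chains and gene lists were chosen with earlier results of these data known. Genes were named from the chains, the members of lists of up to 12 genes, up to 4 genes with the smallest adjusted p in each comparison from longer lists (Mx1 was added because a count of 1 turned on it), the 3 closest profiles per chain and 3 neighbours on either side. Alternatives were other filters, probe set choices, scalings and variance models, fits on 2 groups, a replicate block and leaving out each array. Promoter windows were searched with Python 3.11.15. Genes without a probe set of 1 symbol were not analysed here.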

Additional observations from a re-analysis of the deposited data

How the results depend on the processing

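None of 132 recomputed differences of the chains changed sign over 11 settings. The pooled SD between arrays was reached by 26 movements, and 106 were smaller. Many of the 106 could not move, because each chain had a single probe set, which left the choice of probe set without effect. A replicate block, or leaving out an array of the group not compared, also leaves a difference as it was. Quantile normalization moved Ifngr1 to -0.28 (IL-12 against IL-2), 0.41 (IL-2 against naive) and 0.13 (IL-12 against naive) and Ifnar1 to 0.06 and -0.84 against naive cells. Centring arrays on their medians, which shifted the median of all tested genes by 0.10 (IL-2) and 0.12 (IL-12) against naive cells, moved Ifngr1 to 0.59 and 0.39, Ifnar1 to 0.23 and -0.65 and, for IL-12, Ifnar2 to -0.26. On leaving out 1 array, Ifngr1 ranged from -0.25 to -0.20 (IL-12 against IL-2), 0.44 to 0.54 (IL-2 against naive) and 0.22 to 0.32 (IL-12 against naive). Ifngr2 ranged from -1.08 to -0.66, -3.50 to -3.24 and -4.45 to -4.03, Ifnar1 from -0.93 to -0.85, 0.09 to 0.17 and -0.78 to -0.75, and Ifnar2 from -1.22 to -0.98, 0.66 to 0.79 and -0.50 to -0.26, in the same order. Of all genes, 2321 passed limma between IL-12 and IL-2, 737 to 3533 on leaving out 1 array (954 without IL-2 replicate 1, 737 without IL-2 replicate 2, 1219 and 1031 without IL-12 replicates 1 and 2, 3533 without either naive array or with only the groups compared). Between IL-2 and naive cells 5095 passed (2873 higher, 2222 lower; 3274 and 1574 with median centring), 3341 to 5786 on leaving out 1 array, lowest without IL-2 replicate 1. Between IL-12 and naive cells 6454 passed, 5081 to 6844 on leaving out 1 array. A replicate block gave 2414, 5128 and 6471, and in this balanced design it cannot change the chains' differences. Same-numbered arrays had deviations correlated at 0.02, -0.02 and 0.15, so the numbers were not taken as pairs. The cause of these movements was not tested. Precision is limited by 2 arrays per group.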
